A study of Mus musculus with 6 samples.

Results

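The genes described here encode the proteasome, its regulatory particles, its activators and its assembly factors. They were taken by name from the array: every non-control probe whose gene name is Psm, a letter from a to g and a number was kept, and each gene was represented by its brightest probe, the one with the highest mean over all arrays. This gave 47 genes, carried by 58 probes, of 34298 gene names and 55681 probes. Of the 47 genes, 45 were well above background, a call of the scanner software, on all 6 arrays. The exceptions were *Psma8* and *Psmb11*, which were below it on every array. *Psme2* did not come up under its own name and is not analysed here.

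The arrays were single-color Agilent mouse arrays of epithelial organoids at passage 0, 3 from the squamous epithelium of the esophagus and 3 from the columnar epithelium of the stomach. The sample titles carry Mu-1, Mu-2 and Mu-4 in each tissue, read here as mouse numbers. An esophagus and a stomach array with the same number were therefore taken as a pair from the same animal. All 6 cultures were labelled as controls. Harvest was on day 8, except for the stomach culture of mouse 4, on day 7. Both media held EGF, noggin, FGF-10, nicotinamide, N-acetylcysteine, B27, N2 and inhibitors of the TGF-β receptor kinase and of ROCK. WNT3A and R-spondin1 conditioned medium and gastrin were in the stomach medium alone, and forskolin was in the esophagus medium alone, so tissue and medium cannot be told apart in any comparison. The paper's methods start esophagus cultures from enzyme-dissociated cells and stomach cultures from glands of the corpus, released with DTT and EDTA. Tissue and starting material therefore cannot be told apart either. The labels give no strain, age or sex of the animal for an array. The array of esophagus mouse 4 lay on a slide of its own and the other 5 shared a slide.

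The proteasome is the protease that degrades proteins marked with ubiquitin. Its barrel, the 20S core, has outer rings of alpha subunits that gate the entrance and inner rings of beta subunits, of which the products of *Psmb5*, *Psmb6* and *Psmb7* cut proteins. The 19S cap recognizes ubiquitin, removes it and threads the substrate into the barrel with a ring of ATPases. In immune cells and in cells exposed to interferon-γ, the products of *Psmb8*, *Psmb9* and *Psmb10* take the place of the cutting subunits in newly built particles, which changes the peptides offered on MHC class I.

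The labelled tissues were borne out by their markers. Of 5 squamous genes, *Krt5*, *Krt13*, *Krt14* and *Dsg3* were higher in the esophagus and the brightest *Trp63* probe was higher in the stomach, a difference of -1.22 on the log2 scale. All 8 gastric columnar genes were higher in the stomach. None of 8 immune, 6 fibroblast, 4 endothelial or 8 cell division genes passed between the tissues at adjusted p under 0.05 (limma). At an unadjusted p under 0.05, 1 immune, 1 fibroblast and 1 endothelial gene were higher in the stomach and 2 cell division genes higher in the esophagus. Of the genes on the stomach side, *Lyz2* and *Cdh5* were not well above background on any array and *Col1a2* only on 1 stomach array. Their directions therefore cannot be read. In bulk samples such as these, fewer cells of a type and less RNA per cell cannot be told apart.

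Most proteasome genes gave higher values in esophageal than in stomach organoids, by small amounts. With differences given throughout as esophagus minus stomach on the log2 scale, 41 of the 47 genes were above 0 and 6 below, and the median difference was 0.41 (quartiles 0.18 and 0.60). For comparison, the median was 0.02 over all probes and 0.10 over the 21397 probes well above background on all 6 arrays, of which 56.9% were above 0 against 86.7% of the 45 proteasome genes of that kind. The 8 cell division genes had a median of 0.43, close to that of the proteasome genes, and the part of cell division in these differences was not tested. At an adjusted p under 0.05 (limma, Benjamini-Hochberg over all probes), 7 genes were higher in the esophagus, *Psme3*, *Psmd9*, *Psmd14*, *Psmc5*, *Psmg4*, *Psmd6* and *Psmd12*. Only *Psmb8* was higher in the stomach among the 47, and 39 genes passed in neither direction. Of all probes, 5.94% were called on the esophagus side and 6.22% on the stomach side, and among the probes well above background on all arrays these shares were 10.7% and 9.69%. The share of proteasome genes called on the esophagus side, 14.9%, was therefore not far from that of the bright probes. At an unadjusted p under 0.05, 23 genes or 48.9% fell on the esophagus side and 2 on the stomach side, against 22.8% and 16.8% of the bright probes. The differences were not large for this array, since 36.4% of bright probes and 29.8% of the proteasome genes differed by 1.5-fold or more.

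**Figure D1:**
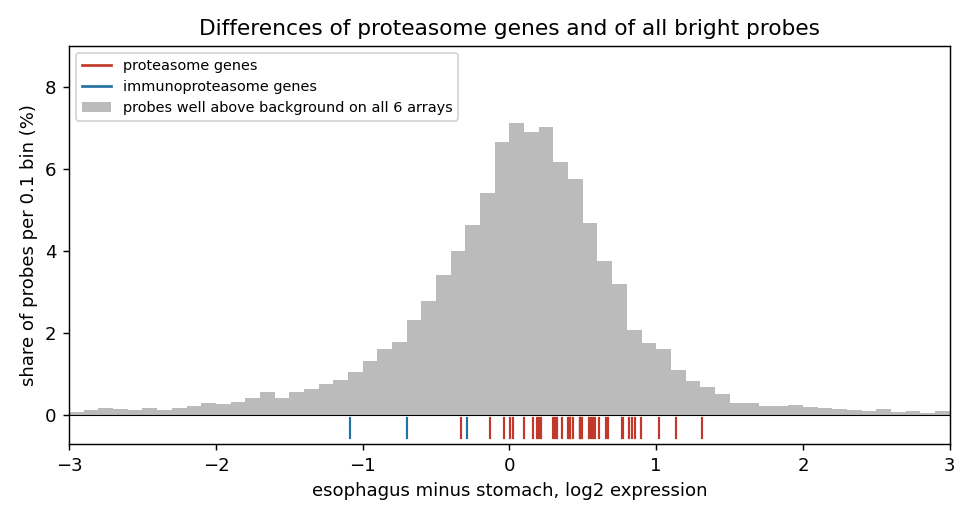
Histogram of esophagus minus stomach differences on the log2 scale for the 21397 probes well above background on all 6 arrays (grey, percent of probes per bin of 0.1), with the 45 proteasome genes of that kind as ticks below, immunoproteasome genes in blue. The ticks lie mostly to the right of the histogram's median of 0.10, and the immunoproteasome ticks lie to the left of 0.

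Most of the genes had the same direction in each animal. Subtracting the stomach from the esophagus array of each mouse gave a median difference over the 47 genes of 0.35 in mouse 1, 0.49 in mouse 2 and 0.47 in mouse 4, with 34, 37 and 42 genes above 0. For the bright probes the medians were 0.07, 0.07 and 0.14, with 54.1%, 54.0% and 58.5% above 0. Of the 47 genes, 29 were higher in the esophagus in all 3 mice, 3 (*Psmb8*, *Psmb9* and *Psme1*) were higher in the stomach in all 3, and 15 were mixed. Of the bright probes, 33.1% were higher in the esophagus and 22.8% lower there in all 3 mice. All esophagus values lay above all stomach values for 19 genes, or 40.4%, against 23.4% of bright probes, and the reverse held for 2 genes, against 16.8%. The number of genes called was less steady than the direction. It was 7 with all arrays, 1 (*Psme3*) without stomach mouse 1 or without stomach mouse 2, 2 without esophagus mouse 2, 3 without esophagus mouse 4, which leaves a single slide, and 11 without stomach mouse 4. No share over the array is given for the fits with an array left out, so only the change in the count is read. The median difference stayed between 0.33 and 0.48.

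**Figure D2:**
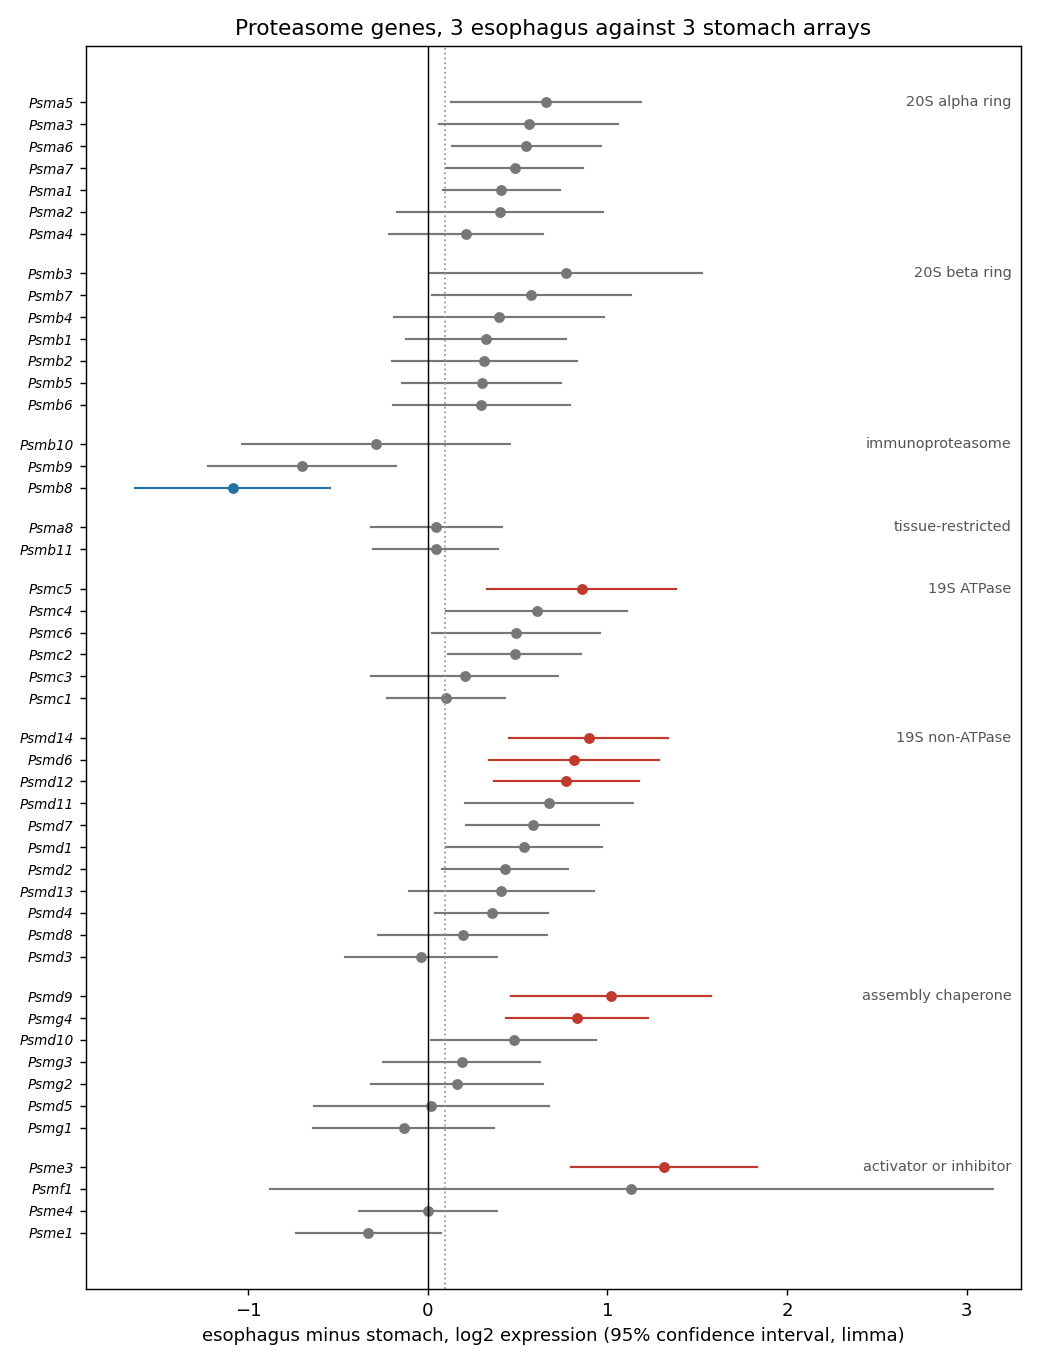
Esophagus minus stomach difference on the log2 scale for each of the 47 proteasome genes, by class, with 95% confidence intervals from limma. Red marks the 7 genes called higher in the esophagus, blue marks *Psmb8*, called higher in the stomach, grey marks the 39 others, and the dotted line is the median of 0.10 of the bright probes.

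The genes of the outer rings gave higher means in the esophagus, without a single call on the deposited values with all arrays. All 7 alpha subunit genes were above 0, from 0.21 for *Psma4* to 0.66 for *Psma5*, with a median of 0.48. None passed the adjusted threshold in limma, and 5 had an unadjusted p under 0.05, as had 22.8% of the bright probes on that side. *Psma1* did pass under other processing, with normexp at an offset of 50 (adjusted p = 0.0257) and with the processed signal and quantile normalization (adjusted p = 0.0378). *Psma6* gave log2 values of 13.23, 12.87 and 13.18 in the esophagus and 12.57, 12.74 and 12.31 in the stomach for mice 1, 2 and 4. Its groups did not overlap, and its difference was 0.55 (standard error 0.18, adjusted p = 0.0972). *Psma7* gave 13.87, 13.92 and 14.30 in the esophagus and 13.59, 13.49 and 13.55 in the stomach, a difference of 0.48 (adjusted p = 0.113). Here too every esophagus array stood above every stomach array. The differences of the others were 0.56 for *Psma3*, 0.41 for *Psma1* and 0.40 for *Psma2*, and the groups of *Psma2* and *Psma4* overlapped. A further *Psma4* probe, well above background on every array, gave 0.43 without overlap and did not pass (adjusted p = 0.193).

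The 7 constitutive beta subunit genes were likewise all above 0, with a median of 0.32, but in each of them the tissues overlapped. None passed in limma, and 2 had an unadjusted p under 0.05, against the same 22.8%. *Psmb3*, a structural subunit, had the largest difference of the ring, 0.77 (adjusted p = 0.202), from values of 14.81, 15.22 and 16.02 in the esophagus and 14.47, 14.28 and 14.99 in the stomach. *Psmb4*, *Psmb1* and *Psmb2* differed by 0.40, 0.32 and 0.32. Among the cutting subunits, the difference was smaller for *Psmb5* and *Psmb6* than for *Psmb7*, a comparison that was not tested. *Psmb5*, the chymotrypsin-like subunit and the main target of bortezomib, gave 15.24, 15.64 and 15.84 in the esophagus and 15.28, 15.12 and 15.41 in the stomach, a difference of 0.30 (95% interval -0.14 to 0.74, adjusted p = 0.414). *Psmb6*, the caspase-like subunit, gave 14.95, 15.37 and 15.59 against 14.97, 14.78 and 15.25, a difference of 0.30 (adjusted p = 0.473). *Psmb7*, the trypsin-like subunit, gave 12.91, 13.04 and 13.50 against 12.34, 12.38 and 12.99, a difference of 0.58 (adjusted p = 0.19). In all 3, the stomach array of mouse 4 reached into the esophagus range. For *Psmb5* and *Psmb6* the stomach array of mouse 1 did so as well. Within mouse 1 these 2 genes were slightly lower in the esophagus, by -0.04 and -0.02.

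All 3 immunoproteasome subunit genes had a mean difference below 0, and *Psmb8* alone of them passed the test. Of the bright probes, 9.69% were called on the stomach side and 16.8% had every stomach array above every esophagus array. *Psmb8*, which replaces the product of *Psmb5*, gave 6.24, 6.57 and 6.26 in the esophagus and 7.32, 7.92 and 7.09 in the stomach. Every stomach array lay above every esophagus array, and the stomach mean was 2.12-fold higher, a difference of -1.08 (standard error 0.23, adjusted p = 0.0212). The *Psmb8* probe maps to chromosome 17, bases 34337771 to 34337830 of mm9. The call was lost without any one of esophagus mouse 1, esophagus mouse 4, stomach mouse 1 or stomach mouse 2, with adjusted p between 0.0503 and 0.0679, while the difference stayed between -1.26 and -0.85. *Psmb9*, which replaces the product of *Psmb6* and whose gene is a close neighbour of *Psmb8*, gave 8.97, 8.39 and 8.77 in the esophagus and 9.47, 9.70 and 9.05 in the stomach. Its groups did not overlap either, but the difference of -0.70 did not pass (standard error 0.22, adjusted p = 0.0957). A further *Psmb9* probe was well above background on 1 esophagus array and on no stomach array and could not be read.

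*Psmb10*, which replaces the product of *Psmb7*, had no shared direction among the mice. It gave 10.71, 10.79 and 11.72 in the esophagus and 11.65, 11.56 and 10.87 in the stomach, a difference of -0.29 (adjusted p = 0.675). The difference within an animal was -0.94 in mouse 1, -0.77 in mouse 2 and 0.85 in mouse 4. With both arrays of mouse 4 left out, an alternative chosen after seeing the data, the difference of *Psmb10* was -0.86 (adjusted p = 0.0211).

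**Figure D3:**
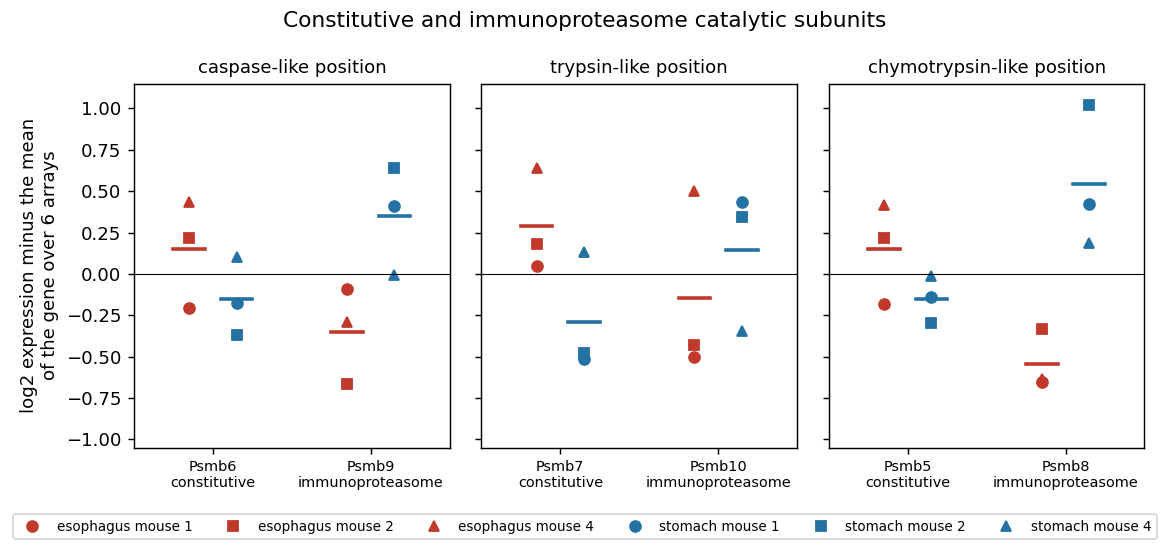
Log2 value of each constitutive cutting subunit gene and its immunoproteasome counterpart on each array, minus that gene's mean over the 6 arrays, with bars at the tissue means. The constitutive genes have the higher mean in the esophagus (red) and the immunoproteasome genes in the stomach (blue), with a difference of -1.08 for *Psmb8*, and *Psmb10* has the values of mouse 4 reversed.

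Whether a cutting subunit and its replacement changed unequally was asked within arrays, by the difference between their log2 values. Only its change between tissues is read, since levels of different probes are not on one scale. *Psmb8* minus *Psmb5* was lower in the esophagus by 2.61-fold, a difference of -1.39, with no overlap between the tissues (exact two-sided permutation p = 0.1, the smallest that 3 against 3 arrays allow). *Psmb9* minus *Psmb6* differed by -0.997 (exact permutation p = 0.2) and *Psmb10* minus *Psmb7* by -0.87 (exact permutation p = 0.2). Adjusted over these 3 comparisons, each p was 0.2, and with 3 against 3 arrays this permutation test could not have passed 0.05 whatever the values. Within mice 1, 2 and 4, *Psmb8* minus *Psmb5* differed by -1.04, -1.87 and -1.25 and *Psmb9* minus *Psmb6* by -0.48, -1.89 and -0.62. *Psmb10* minus *Psmb7* differed by -1.50 and -1.44 in mice 1 and 2 and by 0.34 in mouse 4.

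Of 12 genes of interferon signaling and antigen processing, 4 were called on the stomach side and 0 on the esophagus side (limma), with 6 and 1 at an unadjusted p under 0.05. Of the bright probes, 9.69% were called on the stomach side and 16.8% had such an unadjusted p. The 4 were *Irf8*, an interferon regulatory transcription factor, with a difference of -4.02, *Ifngr1* and *Ifngr2*, the chains of the interferon-γ receptor, with -1.55 and -1.49, and *Irf9*, a transcription factor of the interferon response, with -1.37. *Irf8* gave 5.56, 6.20 and 5.78 in the esophagus, where it was well above background on 2 arrays, and 9.67, 10.02 and 9.92 in the stomach. The peptide loading genes did not pass. *Tap1* and *Tap2*, the peptide transporter, differed by -0.14 and -0.74, and *B2m*, the light chain of MHC class I, by -0.63. *Nlrc5*, a transactivator of MHC class I genes, was below background on all 6 arrays. Of 8 immune cell markers, *Ptprc*, *Cd52*, *Tyrobp*, *Lyz2* and *Laptm5* were below background on all 6 arrays, while *Cd3e* was well above it on all 6 (mean 7.39 for the esophagus, 7.89 for the stomach), *Fcer1g* on 1 esophagus and 3 stomach arrays and *Cd79a* on 2 arrays of each tissue. The log2 of the summed list ran from 8.61 to 8.80 in the esophagus and from 8.72 to 9.22 in the stomach.

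Of the 7 genes called higher in the esophagus, 4 encode subunits of the cap. Among its 6 ATPase genes, all were above 0 and *Psmc5* was called, against 10.7% of the bright probes. The latter gave 13.22, 13.65 and 13.99 in the esophagus and 12.68, 12.59 and 13.02 in the stomach, with no overlap and a 1.81-fold difference of 0.86 (standard error 0.23, adjusted p = 0.0483). This call was kept in 6 of 15 alternatives and was lost without esophagus mouse 2, esophagus mouse 4, stomach mouse 1 or stomach mouse 2, with adjusted p of up to 0.177. *Psmc2* gave 13.58, 13.55 and 13.88 against 13.19, 13.05 and 13.32, also without overlap, a difference of 0.48 (adjusted p = 0.105). The differences of *Psmc4*, *Psmc6*, *Psmc3* and *Psmc1* were 0.61, 0.49, 0.21 and 0.10.

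Among the 11 non-ATPase subunit genes of the cap, 3 were called higher in the esophagus and 10 were above 0, with a median of 0.54. For 8 of them the tissues did not overlap. Of the bright probes, 10.7% were called on that side and 23.4% had every esophagus array above every stomach array. *Psmd14*, the deubiquitinase that strips ubiquitin from substrates, gave 10.89, 11.00 and 11.35 in the esophagus and 10.08, 10.02 and 10.45 in the stomach. That is 1.86-fold, a difference of 0.90 (standard error 0.19, adjusted p = 0.0199). *Psmd12*, a scaffold subunit of the lid, gave 13.42, 13.74 and 13.64 against 12.82, 12.61 and 13.05, a difference of 0.77 (standard error 0.17, adjusted p = 0.025). Fitted with the mouse as a block, *Psmd12* had an adjusted p of 0.0548. A further *Psmd12* probe differed by 0.61, without overlap of the tissues, and did not pass (adjusted p = 0.0882). With its probes averaged *Psmd12* passed (adjusted p = 0.0115). In none of the 11 proteasome genes with a further probe was that probe called. *Psmd6*, also of the lid, gave 12.27, 12.28 and 12.80 against 11.41, 11.66 and 11.84, a difference of 0.81 (adjusted p = 0.0384).

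The remaining lid and base subunits did not pass. *Psmd7*, the catalytically inactive partner of the deubiquitinase, differed by 0.58 (adjusted p = 0.0538), and *Psmd11*, a lid scaffold, by 0.67 (adjusted p = 0.0751). The large base subunits *Psmd1* and *Psmd2* differed by 0.54 and 0.43, the ubiquitin receptor *Psmd4* by 0.36, and the lid subunits *Psmd13* and *Psmd8* by 0.41 and 0.19. *Psmd3*, another lid subunit, was at -0.04, and its 95% interval ran from -0.46 to 0.39.

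Of 7 assembly factor genes, 2 were called, on the esophagus side (10.7% of the bright probes), and the median difference was 0.19. *Psmd9*, *Psmd5* and *Psmd10* encode chaperones of the cap's ATPase ring, and *Psmg1* to *Psmg4* encode chaperones of the alpha ring. *Psmd9* gave 10.01, 10.34 and 10.64 in the esophagus and 9.18, 9.03 and 9.72 in the stomach, 2.03-fold, a difference of 1.02 (standard error 0.24, adjusted p = 0.0303). *Psmg4* gave 10.10, 9.72 and 10.23 against 9.23, 9.13 and 9.20, 1.78-fold, a difference of 0.83 (standard error 0.17, adjusted p = 0.0172). With these probes the tissues did not overlap in either gene. A further *Psmd9* probe, well above background on all 6 arrays, gave overlapping tissues and a difference of 0.58 (adjusted p = 0.31), and with its probes averaged *Psmd9* did not pass (adjusted p = 0.0789). *Psmd10*, also known as gankyrin, differed by 0.48, *Psmg3* by 0.19, *Psmg2* by 0.16, *Psmd5* by 0.02 and *Psmg1* by -0.13, and none of these passed. For *Psmg1* a further probe gave 0.35, so its direction is not settled by the array.

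The activators spread widest. *Psme3*, which encodes a nuclear activator that opens the barrel without ubiquitin or ATP, had the largest difference of the called genes. It gave 12.84, 13.07 and 13.05 in the esophagus and 11.53, 11.35 and 12.14 in the stomach, with no overlap. The esophagus mean was 2.49-fold higher, a difference of 1.31 (standard error 0.22, adjusted p = 0.00705). The *Psme3* probe maps to chromosome 11, bases 101184289 to 101184348 of mm9. Of the 8 called genes, *Psme3* alone kept its call in all 15 alternatives with an adjusted threshold, with adjusted p from 0.00153 to 0.0422. The others kept theirs in 6 (*Psmc5*) to 11 (*Psmd14* and *Psmg4*). *Psme1*, a subunit of the interferon-responsive activator, gave 12.71, 12.37 and 12.42 against 12.90, 13.00 and 12.60, and was lower in the esophagus in each mouse by a mean difference of -0.33 that did not pass (95% interval -0.73 to 0.07, adjusted p = 0.313). *Psme4*, a nuclear activator, gave 9.31, 9.49 and 9.65 against 9.33, 9.43 and 9.67, with a difference of 0.00 (95% interval -0.38 to 0.39).

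*Psmf1*, an inhibitor of the barrel in the test tube, gave 8.38, 12.09 and 8.74 in the esophagus and 8.41, 8.73 and 8.67 in the stomach. Its difference of 1.13 (adjusted p = 0.512) rested on the array of esophagus mouse 2, without which it was -0.04. The gene has a single spot, read there at a mean intensity of 4500 against 239 to 562 on the other 5 arrays. The spot in the preceding row of the same column read 7413 on that array and 28 to 42 on the others, and it carries a probe of another locus.

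The subunits restricted to single tissues were not detected. *Psma8*, the alpha subunit of the testis, gave 4.48, 4.76 and 4.77 in the esophagus and 4.63, 4.48 and 4.76 in the stomach. *Psmb11*, the beta subunit of the thymic cortex, gave 4.84, 4.76 and 4.71 against 4.63, 4.63 and 4.92. None of these values was well above background, and the tissues overlapped in both genes.

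Across arrays the classes did not all follow one order. Each gene's value was set against its own mean over the 6 arrays, and the median of these deviations was taken per array. Over all 47 genes it was 0.08, 0.13 and 0.44 in the esophagus of mice 1, 2 and 4 and -0.21, -0.30 and -0.03 in the stomach. Every esophagus array was thus above every stomach array, and mouse 4 was the highest within each tissue. The bright probes as a whole stood in the same order of tissues, with mouse 4 again highest in each, within a narrower range of -0.07 to 0.10. The non-ATPase genes of the cap gave 0.22, 0.26 and 0.32 in the esophagus and -0.33, -0.38 and -0.12 in the stomach, a clear separation. The alpha ring (0.08 to 0.51 against -0.36 to -0.03) and the ATPase genes (0.06 to 0.46 against -0.43 to -0.003) separated too, by narrower gaps. The assembly factors did so barely, with a lowest esophagus value of -0.0629 and a highest stomach value of -0.0643. The constitutive beta ring gave -0.15, 0.18 and 0.46 against -0.18, -0.39 and 0.03, and here the esophagus array of mouse 1 fell below the stomach array of mouse 4. The immunoproteasome gave -0.50, -0.43 and -0.29 against 0.42, 0.64 and -0.01. Mouse 4 differed from the others in harvest day for its stomach culture and in slide for its esophagus array. With both of its arrays left out, the median difference was 0.33 and 7 genes were called on the esophagus side, 5 of them among the 7 called with all arrays. No share over the array is given for that fit. *Psmc5* and *Psmg4* lost their calls and *Psmd7* and *Psmd11* gained one.

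**Figure D4:**
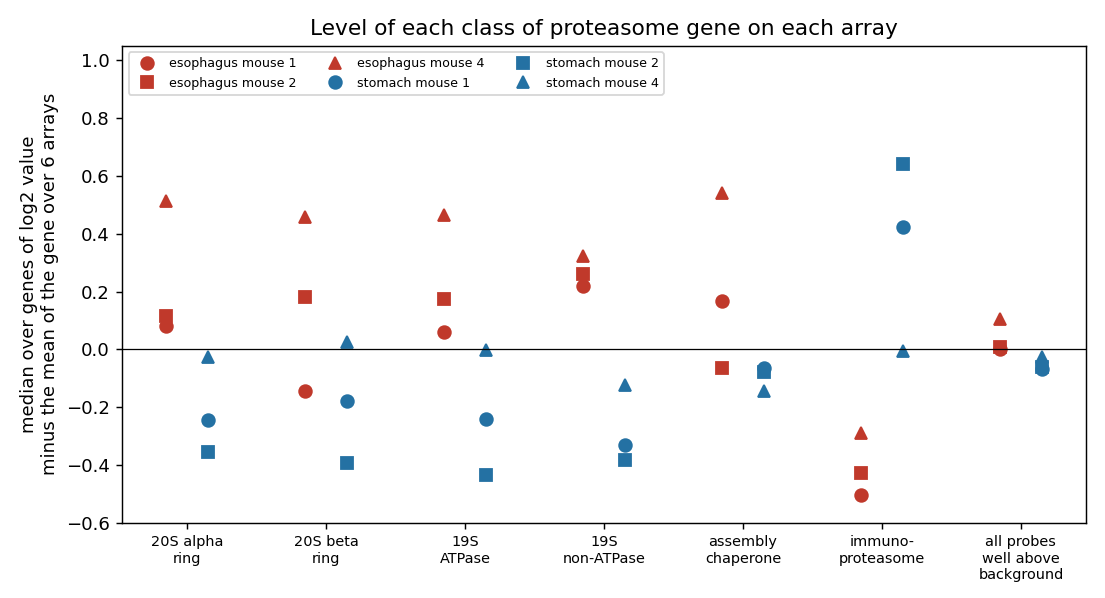
Median over the genes of a class of the log2 value minus the gene's own mean over 6 arrays, for each array, with esophagus in red, stomach in blue and symbols for mice 1, 2 and 4. The non-ATPase genes of the cap separate the tissues (0.22 to 0.32 against -0.38 to -0.12). The alpha ring, the ATPase genes and, barely, the assembly factors do so too, and the beta ring overlaps. The immunoproteasome genes separate the tissues in the opposite direction, and the medians of all bright probes lie between -0.07 and 0.10.

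Of 27 further genes of the pathway, 26 were matched on the array, all well above background on the 6 arrays. Among them 6 passed on the esophagus side and 0 on the stomach side (limma), or 9 and 0 at an unadjusted p under 0.05, against 10.7% and 22.8% of the bright probes on the esophagus side. The median difference was 0.25, and the lowest was that of *Ecpas*, a proteasome adaptor and scaffold, at -0.55 (adjusted p = 0.295). *Uba6*, which activates ubiquitin and the related modifier FAT10, differed by 1.47 (adjusted p = 0.0319), with esophagus values of 9.14, 8.43 and 8.84 against 7.41, 6.60 and 7.98. *Zfand5*, a zinc finger protein that binds and stimulates the proteasome, differed by 1.21 and *Rad23b*, a shuttle for ubiquitylated proteins, by 0.87. *Akirin2*, which helps to bring proteasomes into the nucleus, differed by 0.90 (standard error 0.16, adjusted p = 0.00947), *Ddi2*, the protease that activates the transcription factor of *Nfe2l1*, by 0.79, and *Sem1*, a small subunit of the cap whose name lies outside the Psm series, by 0.71. *Pomp*, the chaperone of barrel maturation, differed by 0.80 and did not pass (adjusted p = 0.0625). *Nfe2l1*, the main transcriptional regulator of proteasome genes, differed by 0.54 (adjusted p = 0.221) and *Nfe2l2* by 0.23 (adjusted p = 0.569). *Ubb*, which encodes ubiquitin, and *Rps27a*, which encodes ubiquitin fused to a ribosomal protein, differed by -0.13 and -0.06, and neither passed.

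Promoters of the proteasome genes were read for the letters of known factors, since constitutive and interferon-responsive subunits are held under different regulators. Windows of 300 bases, from 250 before to 50 after the start of transcription, came from RefSeq on GRCm38.p6 and were matched by symbol for 39 of the 47 genes, in 41 windows. Both strands were searched. TGACNNNGC, the core of the antioxidant response element bound by the products of *Nfe2l1* and *Nfe2l2*, occurred in 14.63% of the member windows and in 12.39% of all 32851 windows. GAAANNGAA, a core of the interferon-stimulated response element, occurred in 17.07% against 8.56%. It was found in *Psmb3*, *Psmb4*, *Psmc2*, *Psmd4*, *Psmd9*, *Psmg4* and *Psme1*, and in none of the immunoproteasome subunit genes. TTCNNNGAA, the gamma-activated sequence of interferon-γ responsive genes, occurred in 7.32% against 8.3%, in *Psmb8*, *Psmd2* and *Psmg1*, and CCAAT in 34.15% against 37.41%. None of the matches printed here overlaps a match to another of these motifs. The stretches are those of the genes on which the comparisons turn: *Psmb8* and the subunit it replaces, and *Psme3*, *Psmd9* and *Psmd12*, all called higher in the esophagus, with both cores of *Psmd9*. Capitals mark the match, and each stretch is written in the gene's direction.
Psmb8, TTCNNNGAA, chr17:34198074-34198130, plus strand: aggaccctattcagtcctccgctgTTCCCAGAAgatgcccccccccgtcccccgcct
Psmb5, TGACNNNGC, chr14:54618010-54618066, minus strand: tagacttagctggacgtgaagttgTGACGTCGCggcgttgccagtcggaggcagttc
Psmd9, TGACNNNGC, chr5:123228135-123228189, plus strand: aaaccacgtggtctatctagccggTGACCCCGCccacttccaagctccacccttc
Psmd9, GAAANNGAA, chr5:123228007-123228063, plus strand: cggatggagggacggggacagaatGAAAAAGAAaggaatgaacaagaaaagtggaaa
Psmd12, TGACNNNGC, chr11:107479278-107479313, plus strand: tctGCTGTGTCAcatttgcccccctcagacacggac
Psme3, CCAAT, chr11:101316175-101316212, plus strand: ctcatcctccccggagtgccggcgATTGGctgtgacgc
In *Psmd12* and *Psme3* the match reads on the opposite strand. Of the 6 genes with the antioxidant response element core, *Psmd9* and *Psmd12* were called, with differences of 1.02 and 0.77, against 14.9% of all proteasome genes and 10.7% of the bright probes on that side, and nothing is read from so few genes. *Psmb5*, *Psmb6*, *Psmc6* and *Psme4* were not, with 0.30, 0.30, 0.49 and 0.00. These are matches of letters and not measured binding sites.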

How the data were processed

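Total RNA of 6 organoid cultures was labelled with Cy3 and hybridised to Agilent mouse arrays, and the authors read them with Feature Extraction (11.5.1.1). The deposited scanner files give the intensity of each of 62976 spots. A deposited table holds log2 values after the authors' background correction and quantile normalization, and each column matched its own array (r at least 0.9988) over any other. Its 2029 empty cells were outlier-marked spots, and no member had one. The 59305 non-control spots were averaged per probe and tested with limma 3.58.1 in R 4.3.3, with no block term, and p-values were adjusted over 55681 probes (Benjamini-Hochberg). A gene was called at adjusted p under 0.05. All intervals are 95% confidence intervals from limma. The shares of spots well above background were 45.5% to 51.1%, none was saturated, and the number of arrays limits the precision.

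Replicate numbers were read from the titles as marking the animal, and so as pairing the arrays. Deviations from tissue means correlated across probes within a mouse at r = 0.02, 0.01 and -0.01, against -0.07 to 0.04 between mice. The values within a mouse lay inside the range between mice. They gave no clear sign of the pairing, which rests on the titles. Alternatives were normexp on the scanner intensities (offsets 16 and 50), the software's processed signal with scaling to the 75th percentile or quantile normalization, the mouse as a block, each array left out, trend and robust variances, averaged probes, a filter on dim probes, and unadjusted thresholds as the study's methods can be read. The fit was tested on simulated data. Every member is named. Values per array are given for the cutting subunits, their replacements, the activators and those of smallest p in the other classes, and *Psmd6*, *Psmf1* and the other genes given per array were added after their values were seen. The members and lists were chosen with earlier results of these data known. Gene names are those of the array, coordinates of probes those of mm9, and exon annotation was not used here. Some genes of the fixed lists are counted but not reported by name.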

Additional observations from a re-analysis of the deposited data

How the results depend on the processing

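The median difference of the proteasome genes was 0.69 with the processed signal scaled to the 75th percentile, where the median of all probes rose from 0.02 to 0.19. The number of genes higher in the esophagus, 7, became 1 under that scaling and 4 with the processed signal and quantile normalization. Normexp at an offset of 50 gave 8, where *Psmc5* and *Psmd9* lost their calls and *Psma1*, *Psmd4* and *Psmd7* gained one. An unadjusted p under 0.05 gave 23 genes, against 22.8% of bright probes. With 1.5-fold also required it gave 11. No share over the array is given at that threshold, under the other processings or with arrays left out. The counts at those settings therefore cannot be read as high or ordinary for the array. The number higher in the stomach, 1, became 0 with normexp at an offset of 50 and with the processed signal and quantile normalization. It was 2 at both unadjusted thresholds, against 16.8% of bright probes at the unadjusted p alone. With both arrays of mouse 4 left out it was 2. Leaving out arrays, both of mouse 4 included, gave 1 to 11 genes higher in the esophagus, 0 to 2 higher in the stomach and medians of 0.33 to 0.48. The paired fit with the mouse as a replicate block gave 6 genes higher in the esophagus, 1 higher in the stomach and the same median of 0.41, and changed no call but that of *Psmd12*. Directions turned only in genes that were not called: *Psmd3* to 0.29 and *Psmg1* to 0.18 under percentile scaling, *Psma8* to -0.0257 with the processed signal and quantile normalization, and *Psmg1* to 0.11 with averaged probes. Over the arrays left out, *Psmd3* ran from -0.14 to 0.10, *Psmg1* from -0.344 to 0.0642, *Psmf1* from -0.0428 to 1.81, *Psma8* from -0.0201 to 0.144, *Psmd5* from -0.274 to 0.299, *Psme4* from -0.0814 to 0.102, *Psmg2* from -0.0501 to 0.36, *Psmg3* from -0.0298 to 0.338 and *Psmb11* from -0.0058 to 0.167. Over 13 alternatives *Psmb8* minus *Psmb5* ran from -2.13, under percentile scaling, to -1.07, *Psmb9* minus *Psmb6* from -1.38 to -0.50, with averaged probes, and *Psmb10* minus *Psmb7* from -1.47, without mouse 4, to -0.61. None turned direction. Paired by mouse, with the signs flipped within mice, their exact p was 0.25, 0.25 and 0.5, where 0.25 is the smallest that 3 pairs allow. The -0.50 with averaged probes takes in the further *Psmb9* probe, which was well above background on 1 esophagus array and on no stomach array. That value therefore cannot be read as a change of *Psmb9*. The cause of the other shifts was not tested. *Psma8* and *Psmb11* were below background on every array, so their directions cannot be read and no bound on their difference can be given.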
